A study of Mus musculus with 4 samples.

Results

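Type I interferon-stimulated genes were followed in sorted long-term hematopoietic stem cells of 4 mouse genotypes. They are a list of 46 genes known to be induced by interferon alpha and beta. The list was drawn up by name, but with earlier results of these data known. All 46 were present in all 4 count tables, and 44 reached a mean of at least 5 CPM (counts of UMIs, tagged RNA molecules, scaled to a common library total) over the libraries, out of 10231 genes that did so. Ifit3 and Oas2 were below that floor. One library had been made per genotype. The control carried MxCRE and is called Mx, and the others were labelled NPMc+ or Flt3-ITD for the single mutants and NPMc+/Flt3-ITD for the combination. All mice were C57BL/6, were 8 to 11 weeks old and gave bone marrow. NPMc+ is the cytoplasmic form of nucleophosmin found in acute myeloid leukemia, and Flt3-ITD is an internal tandem duplication that keeps the Flt3 receptor kinase active. The Mx label refers to Cre recombinase under the promoter of Mx1, itself an interferon-stimulated gene, in a line in which Cre is usually switched on by giving interferon or an inducer of it. Whether and when an inducer was given, whether the other genotypes also carried MxCRE, how the alleles were built and how many mice went into each library are not given in the sources used here. Gene-level 3′ counts do not show either mutant allele, so the genotypes stand as labelled.

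Type I interferons bind the receptor of Ifnar1 and Ifnar2, whose kinases Tyk2 and Jak1 phosphorylate STAT proteins, Stat2 among them. With Irf9 these form the complex ISGF3, which binds an interferon-stimulated response element (ISRE) in promoters of target genes. The targets include sensors of viral RNA and DNA, enzymes that degrade or modify RNA, membrane proteins that restrict virus entry, and regulators that amplify or end the signal. Hematopoietic stem cells express many of them without infection, and interferon is known to drive quiescent stem cells into the cell cycle.

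The ISRE is shown here in the promoters of members with different behaviour. In RefSeq promoters of GRCm38.p6 (250 bases before to 50 bases after a start), 36 of the 46 members were matched. The core, a GAAA block, an NN spacer and a GAAA block, searched on both strands with overlapping matches counted, was present in 16 of the 36 (44.4%), against 3.99% of 27025 genes. The gamma-activated site TTCNNNGAA, an element of genes induced by interferon gamma, was present in 9 of the 36 (25%), against 9.55% of genes. Capitals mark the GAAA or TTTC blocks of each match, and each sequence is written 5′ to 3′ on the strand of its gene. A match is a description of letters and not a site shown to be bound. Ifitm1, the 1 member at least 1.5-fold higher in Flt3-ITD, had no match in its RefSeq window. The 100 bases upstream of that RefSeq start are shown for comparison. They lie inside the gene as GENCODE places it, at chr7:140967221-140969825. The sequence before the GENCODE start of Ifitm1 was not tested for a match.
Isg15, chr4:156200863-156200908, minus strand: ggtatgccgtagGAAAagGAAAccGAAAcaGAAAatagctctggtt
Ifit1, chr19:34640773-34640825, plus strand: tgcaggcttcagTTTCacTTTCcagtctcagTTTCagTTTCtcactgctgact
Oas1a, chr5:120907526-120907557, minus strand: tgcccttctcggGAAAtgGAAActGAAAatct
Stat2, chr10:128270264-128270297, plus strand: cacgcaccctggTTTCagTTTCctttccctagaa
Bst2, chr8:71537575-71537614, minus strand: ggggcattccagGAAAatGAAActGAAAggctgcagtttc
Ifitm2, chr7:140955986-140956019, minus strand: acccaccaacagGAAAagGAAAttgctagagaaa
Ifitm1, chr7:140967926-140968025, plus strand: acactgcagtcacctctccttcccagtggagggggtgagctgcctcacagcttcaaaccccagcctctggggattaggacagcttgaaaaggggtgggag
Isg15 held 3 matches, Ifit1, Oas1a and Bst2 held 2 each, and Stat2 and Ifitm2 held 1 each. The same element thus stood in front of Isg15 and Ifit1, which were lower in Flt3-ITD, and of Oas1a and Ifitm2, which were not.

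Of 11407 deposited barcodes, 10608 were kept (Mx 2519, then NPMc+ 2375, then Flt3-ITD 2393 and last NPMc+/Flt3-ITD 3321), with 20943905 to 26965367 UMIs per library. Median UMIs per cell were 8094, 9466, 8661 and 7323 in that order. Barcodes found in more than 1 library numbered 148, of which 52 were kept. With 1 library per genotype no spread between mice can be estimated: intervals are 95% intervals for counting error only, no test between genotypes was possible, and a gene counts as lower or higher from 1.5-fold. Libraries also differed in cell make-up. The summed level of 10 stem cell markers, among them Procr, Hlf and Mecom, was 1052, 821, 543 and 443 CPM in the order above, and no marker was at 0. In NPMc+ the markers Ly6a, Hoxb5 and Slamf1 stood above Mx, at 269, 17.4 and 33.6 CPM against 162, 10.8 and 26.1. The others of the list stood below Mx there. The summed level of 8 T or NK markers was 160, 422, 295 and 1138 CPM, with Cd3e at or below 0.86 CPM everywhere and Trbc1 at 330 CPM in NPMc+/Flt3-ITD. The summed level of 5 mast or basophil markers was 253, 416, 315 and 814 CPM. Of these, the mast cell protease gene Cpa3 stood at 550 CPM in NPMc+/Flt3-ITD and at 16.1 CPM in Mx, and Mcpt8 at 25.1 and 0. The rest of that list did not follow them, with Gata2 at 239 and 235, Fcer1a at 0.63 and 2.15 and Prss34 at 0 and 0.095. The summed level of 12 genes induced by tissue dissociation was 4444, 9449, 15721 and 10307 CPM. In a summed library, fewer cells of a type and less RNA per cell cannot be told apart.

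Most of the interferon-stimulated genes were lower in Flt3-ITD than in Mx. Of the 44 members, 40 had a lower level in Flt3-ITD than in Mx, as had 6546 of all 10231 genes. Of the members, 23 were at least 1.5-fold lower and 10 at least 2-fold lower, against 10.2% and 2.59% of all genes. Ifitm1 alone was 1.5-fold higher, a change shown by 5.18% of all genes. The members' median log2 ratio was -0.62, and that of all genes was -0.10. NPMc+ differed less from Mx: 8 members were lower and 1, Slfn2, was higher, against 12.8% and 4.9% of all genes, so 8 of 44 is not far from the background. Their median there was -0.19 (all genes -0.06). NPMc+/Flt3-ITD had 18 lower and 4 higher members, against 12.2% and 12.8% of all genes, with a median of -0.40 (all genes 0.14). The 3 ratios share the Mx library. Mx had the highest level of the 4 libraries for 25 members (56.8%, against 28.3% of all genes), and Flt3-ITD the lowest for 28 (63.6%, against 32.3%). Ifi27 was the 1 member higher than Mx in all 3 mutant libraries, a pattern of 22.7% of all genes. Under TMM scaling NPMc+ had 4 lower and 4 higher members, against 8.17% and 7.74% of all genes, so both are near the background. Flt3-ITD then had 19 lower and 1 higher, against 6.03% and 6.81%. NPMc+/Flt3-ITD had 20 and 4, against 12.6% and 11.7%. Totals without mitochondrial and ribosomal protein genes gave NPMc+/Flt3-ITD 23 lower and 2 higher members, against 17.4% and 7.21%.

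**Figure D1:**
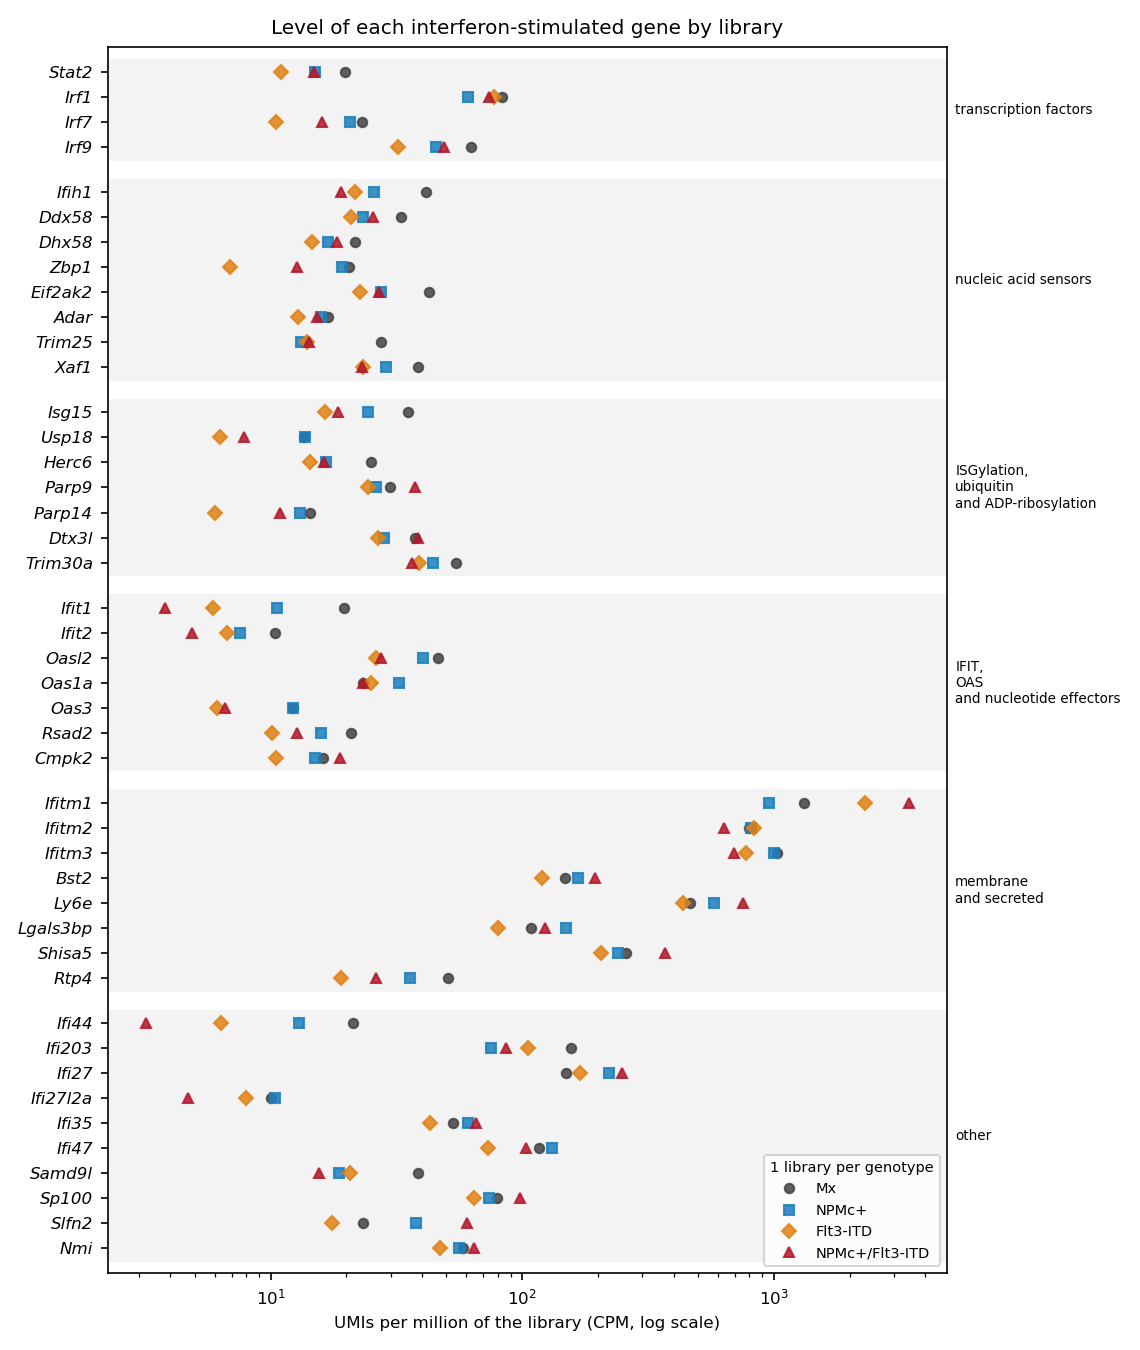
Level of each of the 44 measured members in the 4 libraries, in CPM on a log axis, grouped by role, with 1 point per library. Most Flt3-ITD points lie left of the Mx points, while Ifitm1 runs the other way, from 1319 CPM in Mx to 2310 in Flt3-ITD and up to 3435 in NPMc+/Flt3-ITD.

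The transcription factors of the response were lower in Flt3-ITD except for Irf1. Stat2, a subunit of ISGF3, stood at 19.8 CPM in Mx and at 15.1, 11.0 and 14.9 CPM in the libraries NPMc+, Flt3-ITD and NPMc+/Flt3-ITD. Its log2 ratio to Mx was -0.84 (interval -1.08 to -0.61) in Flt3-ITD, with both other mutant libraries between Mx and Flt3-ITD. Irf9, the DNA-binding subunit of ISGF3, was at 62.7, 45.5, 32.1 and 48.7 CPM and was likewise lowest in Flt3-ITD, at -0.97 (-1.10 to -0.83). Irf7, which amplifies interferon production, was at 23.1, 20.6, 10.5 and 16.1 CPM. Its ratio was -1.14 (-1.37 to -0.91) in Flt3-ITD, and in NPMc+ its interval included no difference. Irf1, which is also induced by interferon gamma and by inflammatory signals, was at 83.2, 61.0, 77.6 and 73.8 CPM and was lowest in NPMc+ (-0.45).

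Sensors of viral nucleic acid, grouped with the related factors Trim25 and Xaf1, were below Mx for 8 of 8 members in each mutant library. Of all 10231 genes, 5857, 6546 and 3932 were below Mx in NPMc+, Flt3-ITD and NPMc+/Flt3-ITD. Among the 8 members, 3, 6 and 5 were past 1.5-fold in that order, against 12.8%, 10.2% and 12.2% of all genes. Ifih1, the long double-stranded RNA sensor MDA5, was at 41.6, 25.6, 21.6 and 19.0 CPM, and was past 1.5-fold in all 3. Trim25, a ubiquitin ligase acting on RIG-I, was at 27.4, 13.2, 14.0 and 14.2 CPM, so the 3 mutant libraries had nearly the same level. Zbp1, a sensor of Z-form nucleic acid that triggers cell death, was at 20.5, 19.2, 6.91 and 12.8 CPM. Unlike Trim25 it was as high in NPMc+ as in Mx within counting error, and 2.96-fold lower (2.46 to 3.59) in Flt3-ITD. Ddx58 (RIG-I), Eif2ak2 (the RNA-dependent kinase PKR) and Xaf1 (a pro-apoptotic factor) had log2 ratios of -0.65, -0.91 and -0.73 in Flt3-ITD. Dhx58, at -0.57, lay just outside the fold, and Adar, the RNA-editing enzyme, was at -0.40.

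Isg15, the ubiquitin-like protein that is attached to other proteins after interferon, was at 35.1, 24.3, 16.5 and 18.5 CPM. It was 2.13-fold lower (1.87 to 2.42) in Flt3-ITD and 1.90-fold lower in NPMc+/Flt3-ITD. Usp18, the protease that removes Isg15 and also dampens receptor signalling, was at 13.6, 13.7, 6.28 and 7.86 CPM. It was level between Mx and NPMc+ and lower in both libraries that carry Flt3-ITD. Herc6, the mouse ligase for Isg15, was at 25, 16.6, 14.3 and 16.2 CPM. Parp14, a mono-ADP-ribosyl transferase, was at 14.4, 13.1, 6.00 and 10.9 CPM, and its log2 ratio in Flt3-ITD was -1.26 (-1.57 to -0.96). Its neighbours Parp9 and Dtx3l, which encode a protein pair and lie within 100 kb of Parp14 on chromosome 16, showed smaller differences in Flt3-ITD, -0.29 and -0.48. They were above and near Mx in NPMc+/Flt3-ITD, at 0.33 and 0.04. Parp9 and Dtx3l overlap on opposite strands, and whether counting used strand is not given in the sources used here.

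Of the IFIT, OAS and nucleotide-metabolism effectors, 6 of 7 were lower in Flt3-ITD, 5 in NPMc+/Flt3-ITD and 1 in NPMc+, against 10.2%, 12.2% and 12.8% of all genes. The 1 in NPMc+ is near the background. Ifit1, which binds foreign RNA caps, was at 19.6, 10.6, 5.91 and 3.82 CPM, with 411, 266, 130 and 103 UMIs. It was 3.32-fold lower (2.72 to 4.07) in Flt3-ITD and 5.14-fold lower (4.13 to 6.44) in NPMc+/Flt3-ITD. Its UMIs rested on few cells. The 1% of cells richest in Ifit1 for their depth held 43.6% of them in Mx and 23.3% in NPMc+. In Flt3-ITD and NPMc+/Flt3-ITD that share was 44.6% and 44.7%. Ifit2 was at 10.4, 7.58, 6.73 and 4.86 CPM, in the same order. Rsad2 (viperin) was at 21.0, 15.8, 10.1 and 12.7 CPM, while its neighbour Cmpk2 was at 16.1, 15.0, 10.5 and 19.0 CPM, so both were lowest in Flt3-ITD but they differed in NPMc+/Flt3-ITD. Oas3 and Oasl2, of the oligoadenylate synthetase family, had log2 ratios of -1.0 and -0.81 in Flt3-ITD. Oas1a, with 23.3, 32.3, 25.1 and 23.3 CPM, was highest in NPMc+ and did not differ from Mx beyond counting error in the other libraries. Oas1a is one of several near-identical copies, and reads may be split between them. Below the floor, Ifit3 had 60, 40, 11 and 12 UMIs and Oas2 had 55, 119, 37 and 31.

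Few of the 8 membrane and secreted members passed 1.5-fold. Flt3-ITD had 1 lower and 1 higher, against 10.2% and 5.18% of all genes. NPMc+/Flt3-ITD had 1 lower and 2 higher, against 12.2% and 12.8%. With 8 members, such counts are not far from the background. At any fold, 6 of 8 were below Mx in Flt3-ITD, as were 6546 of all 10231 genes, with a median log2 ratio of -0.31 (all genes -0.10). For NPMc+/Flt3-ITD 3 of 8 were below Mx, with a median of 0.29 (all genes 0.14). The 3 Ifitm genes, which encode membrane proteins that block virus fusion, lie within 1 cluster on chromosome 7 and had different patterns. Ifitm1 was at 1319, 958, 2310 and 3435 CPM, with log2 ratios to Mx of -0.46, 0.81 and 1.38. Ifitm3 was at 1025, 999, 774 and 691 CPM, with ratios of -0.04, -0.40 and -0.57, opposite to Ifitm1 in both libraries with Flt3-ITD. Ifitm2 was at 800, 811, 834 and 634 CPM and was lower only in NPMc+/Flt3-ITD among the 3 ratios (-0.34). Ly6e, a GPI-anchored protein of the Ly6 family, was at 464, 580, 437 and 756 CPM and was past 1.5-fold in NPMc+/Flt3-ITD (0.70). Shisa5 (258, 240, 206 and 369 CPM) and Bst2, the tetherin that holds budding virus (147, 167, 120 and 194 CPM), had the same order of libraries in Flt3-ITD and NPMc+/Flt3-ITD, lowest and highest. Rtp4, a chaperone of G protein-coupled receptors, was at 50.9, 35.9, 19.1 and 26.3 CPM and was the 1 member of this group that was 2.66-fold lower (2.38 to 2.99) in Flt3-ITD.

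Among the other members, Ifi44 had the largest difference of the list. It stood at 21.2 CPM in Mx against 13.0 in NPMc+ and, with Flt3-ITD, 6.37 alone and 3.19 in combination, with 444, 326, 140 and 86 UMIs. That is 3.33-fold lower (2.75 to 4.05) in Flt3-ITD and 6.65-fold lower (5.27 to 8.47) in NPMc+/Flt3-ITD. Ifi203, of the PYHIN family of DNA-binding proteins, was at 156, 75, 105 and 86.2 CPM, and Samd9l, an antiproliferative factor, at 38.6, 18.7, 20.6 and 15.6 CPM. Ifi203 was lower in NPMc+ than in Flt3-ITD, and Samd9l did not differ between them beyond counting error. Ifi203 overlaps Mndal, a relative of the same family, on the same strand, so its count may be shared. Slfn2, a Schlafen protein linked to lymphocyte quiescence, was at 23.3, 37.8, 17.5 and 60.3 CPM, with a ratio of 1.37 (1.22 to 1.52) in NPMc+/Flt3-ITD. Ifi27, a mitochondrial protein, was at 149, 222, 170 and 250 CPM. Its neighbour Ifi27l2a, within the same 100 kb on chromosome 12, was at 10.1, 10.5, 8.01 and 4.71 CPM. Of 6 such clusters holding 15 of the listed genes, those of Ifitm, Ifi27, Parp14 and Rsad2 thus held members of opposite direction in NPMc+/Flt3-ITD.

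**Figure D2:**
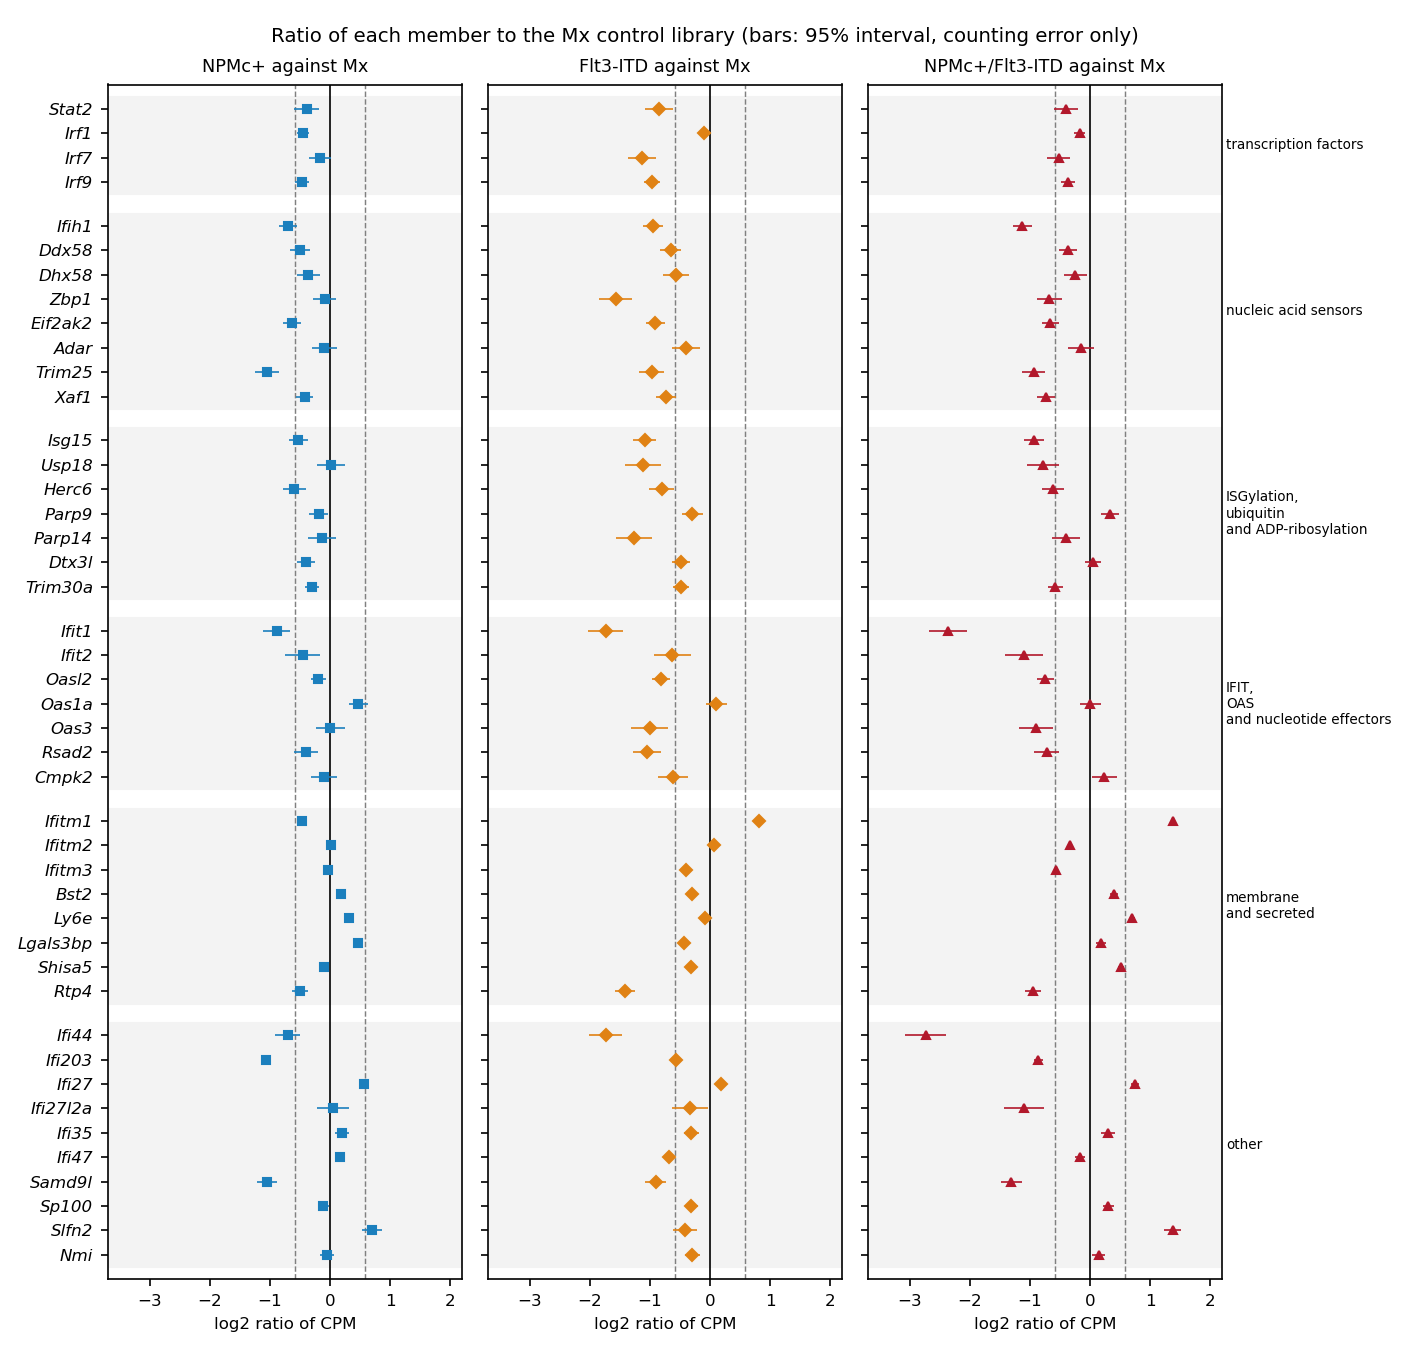
Log2 ratio of each member to the Mx library, in 3 panels for the 3 mutant libraries, with bars for the 95% interval of counting error and dashed lines at 1.5-fold. In the Flt3-ITD panel 40 of 44 points lie left of 0, where 6546 of all 10231 genes lay. In the NPMc+/Flt3-ITD panel points lie from -2.73 (Ifi44) to 1.38 (Ifitm1).

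NPMc+/Flt3-ITD was set beside each single mutant. Against Flt3-ITD, 13 members were higher and 3 (Ifit1, Ifi44 and Ifi27l2a) were lower, against 14.3% and 8.75% of all genes. The members' median was 0.32, close to that of all genes (0.25). Under TMM scaling the split was 6 higher and 4 lower, against 7.91% and 11.5% of all genes. The higher ones included Irf7 (0.61), Irf9 (0.60), Zbp1 (0.88), Parp14 (0.86) and Slfn2 (1.78). Against NPMc+, 7 members were lower and 3 (Ifitm1, Shisa5 and Slfn2) were higher, with 8.63% and 14.3% among all genes. The 7 lower ones were Zbp1, Usp18, Ifit1, Ifit2, Oas3, Ifi44 and Ifi27l2a. TMM scaling gave 12 lower and 1 higher, against 11.4% and 8.87% of all genes. The split also turned with sex. Among female cells 2 were lower and 8 higher, against 7.86% and 15.1% of all genes, and Zbp1, Usp18 and Ifit2 changed sign. Among male cells 12 were lower and 1 higher, against 9.3% and 15.3%. For 17 members (38.6%) the level of NPMc+/Flt3-ITD lay between the single mutants, for 11 (25%) below both and for 16 (36.4%) above both. The shares among all genes were 19.4%, 18.3% and 62.4%. Effects that multiply would give NPMc+/Flt3-ITD a ratio to Mx equal to the product of the single ratios. The observed level was at least 1.5-fold above that product for 22 of 44 members and below it for 1 (Ifi27l2a), against 27.5% and 9.09% of all genes. Median departures were 0.58 and 0.30 on the log2 scale. Slfn2 departed by 1.09, Trim25 by 1.08, Irf9 by 1.06 and Ifitm1 by 1.03. Departures were taken with library totals only. Another scaling would shift those of the members and of all genes alike, and with them the counts past 1.5-fold.

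Summed over all 44 members, the level was 5668, 5251, 5826 and 7551 CPM, which hides the lower levels of most members. Ifitm1 alone gave 23.3% of the sum in Mx and 18.3% in NPMc+, but 39.7% with Flt3-ITD alone and 45.5% in NPMc+/Flt3-ITD. Without the 5 most abundant members (Ifitm1, Ifitm3, Ifitm2, Ly6e and Shisa5) the other 39 summed to 1803, 1664, 1265 and 1667 CPM. The log2 ratio of Flt3-ITD to Mx was 0.04 with all members and -0.51 for the 39 (-0.53 to -0.49). That of NPMc+/Flt3-ITD to Mx was 0.41 with all and -0.11 for the 39. The sign of the summed ratio in Flt3-ITD and NPMc+ also depended on scaling. In Flt3-ITD lower members nevertheless outnumbered higher ones under both other scalings that were run. They numbered 19 and 1 with TMM, against 6.03% and 6.81% of all genes. With totals that leave out mitochondrial and ribosomal protein genes they numbered 25 and 1, against 12% and 4.79%.

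Per cell, after each cell was thinned to 3000 UMIs, the 39 less abundant members gave a mean of 5.59 UMIs in Mx against 5.12 in NPMc+ and 3.93 in Flt3-ITD, while NPMc+/Flt3-ITD had 5.21. These means were over 2311, 2250, 2175 and 2991 cells, and 208, 125, 218 and 330 shallower cells were left out. The standard deviations over cells were 3.83, 3.18, 2.44 and 2.99. The upper tail was shortest in Flt3-ITD, where 2.44% of cells lay above the 90th percentile of Mx (9 UMIs), against 9.87% in Mx, 7.69% in NPMc+ and 7.32% in NPMc+/Flt3-ITD. A few Mx cells carried very many member UMIs: the highest held 70, and the highest Flt3-ITD cell held 20. When the less abundant members were divided into separate sets, the per-cell totals of the sets correlated at r = 0.40 in Mx against 0.29 in NPMc+ and 0.11 in Flt3-ITD, while NPMc+/Flt3-ITD had 0.20. These are descriptions over cells that share a library and a fixed depth. Leaving out the 1% of cells richest in members gave 21 lower members in Flt3-ITD and left 17 in NPMc+/Flt3-ITD.

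**Figure D3:**
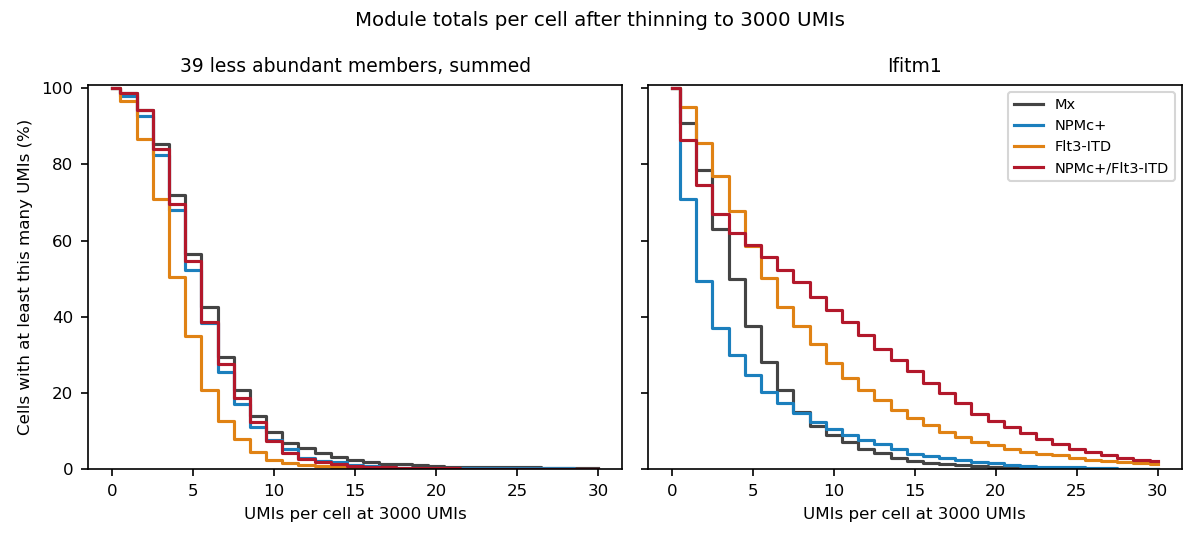
Share of cells (percent) with at least a given number of UMIs, after thinning each cell to 3000 UMIs, for the 39 less abundant members summed and for Ifitm1, with 1 line per library. The Flt3-ITD line is the lowest on the left (mean 3.93 UMIs), and the NPMc+/Flt3-ITD and Flt3-ITD lines reach farthest right for Ifitm1 (means 9.03 and 7.46).

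The lower total in Flt3-ITD was present in each class of cells that could be compared. In cells with UMIs of both Procr and Hlf, markers of long-term stem cells, the 39 members gave 6.01, 5.91, 4.25 and 5.54 UMIs per cell in the same order of libraries (998, 751, 520 and 411 cells). In cells with T or NK markers they gave 4.77, 4.47, 3.63 and 5.35 UMIs, and in cells with granulocyte markers 5.95, 5.70, 4.03 and 5.21. A class need not hold like cells in each library, because single genes weigh heavily in its list. Of the T or NK list, Nkg7 stood at 140, 406, 282 and 521 CPM and Tcf7 at 2.24, 2.55, 0.82 and 192. Of the granulocyte list, summing to 686, 602, 701 and 596 CPM, Prtn3 gave 518, 504, 489 and 300. Cells with a UMI of a cycling gene held 5.24, 4.80, 3.74 and 4.85, slightly below the 5.81, 5.52, 4.12 and 5.55 of cells without one. With cells of other lineages left out by markers, 23 members were lower in Flt3-ITD and 17 were so in NPMc+/Flt3-ITD. Dissociation genes moved with the libraries as well, and their mean per cell at 3000 UMIs was 14.0, 31.0, 50.3 and 34.9. A setting with only cells of 10 to 30 dissociation UMIs was chosen after seeing the data. There 25 members were lower than Mx in Flt3-ITD, 15 in NPMc+ and 23 in NPMc+/Flt3-ITD, and the Flt3-ITD median was -0.84. The share over all genes was not taken in this setting or with cells of other lineages left out.

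Ifitm1 differed strongly between classes of cells. In cells with Procr and Hlf it gave 5.57, 6.24, 9.86 and 12.9 UMIs per cell at 3000 UMIs, so there NPMc+ was no lower than Mx. In NPMc+/Flt3-ITD it gave 12.5 UMIs in cells with granulocyte markers, 6.26 in those with T or NK markers, 2.40 in those with B or plasma cell markers and 2.0 in those with mast or basophil markers. Over all cells its level spread most widely in that library, from a 10th percentile of 0 to a 90th of 21. Ifitm3 gave 3.66, 4.20, 3.08 and 2.94 UMIs in cells with Procr and Hlf. Its mean in NPMc+/Flt3-ITD was 0.32 in cells with mast or basophil markers and 1.16 in cells with T or NK markers. The part of these classes in the library means of both genes was not tested.

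Each library held cells of male and female mice, told apart by UMIs of Y-linked genes and of Xist, and this gave a comparison within libraries. Male cells numbered 1218, 1155, 987 and 2425 and female cells 583, 495, 773 and 179, again with Mx first and NPMc+/Flt3-ITD last. In Flt3-ITD against Mx, 22 members were lower among male cells and 25 among female cells, against 13.1% and 9.15% of all genes, and all 24 members past the fold in the whole libraries kept their sign in both. Irf7 was at 23.7 CPM in Mx and 10.2 in Flt3-ITD among male cells, and at 25.6 and 10.0 among female cells. The size of the Ifit1 difference was unequal, with -0.89 in male and -2.62 in female cells. Female Mx cells held 37.7 CPM and male ones 13.8. For NPMc+/Flt3-ITD against Mx, 19 members were lower among male cells and 13 among female cells, against 13.4% and 12.8% of all genes. Within NPMc+/Flt3-ITD, 11 members were at least 1.5-fold higher in the female than in the male cells and 1, Ifitm1, was lower, against 7.63% and 9.42% of all genes. Female cells of Mx were higher for 5 members (Usp18, Ifit1, Ifit2, Rsad2 and Ifi27l2a) and lower for 0, against 0.626% and 2.01% of all genes. In NPMc+ 0 were higher and 2 (Isg15 and Slfn2) lower, against 1.84% and 1.8%, and in Flt3-ITD 2 (Ifi44 and Slfn2) were higher and 0 lower, against 3.1% and 2.16%. Whether the female to male difference itself differs between libraries was not tested. In thinned Mx cells of either sex the less abundant members had a median of 5 UMIs. The highest female Mx cell held 70 and the highest male one 35. For the 5 members named for Mx, the 1% of all Mx cells richest in each held 20.1%, 43.6%, 23.9%, 24.8% and 37.0% of its UMIs. Whether these differences and the unequal Ifit1 ratios rest on a few female Mx cells was not tested. In NPMc+/Flt3-ITD, Ifi44 was at 12.4 CPM in female and 2.43 in male cells (19 and 51 UMIs), Ifih1 at 39.2 and 17.2, Oasl2 at 56.3 and 25.2, and Ifitm1 at 1339 and 3665. T or NK markers were present in 19.0% of that library's female and 41.1% of the male cells at depth, and mast or basophil markers in 6.55% and 24.8%. Cells free of the markers of every lineage list, those of granulocyte and erythroid cells included, were also compared. There the less abundant members gave 6.52 UMIs in 89 female cells and 5.01 in 915 male cells. The part of cell make-up in this difference was not tested. The number of mice behind the female cells is not known, so a single animal cannot be told apart from a sex or a genotype.

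**Figure D4:**
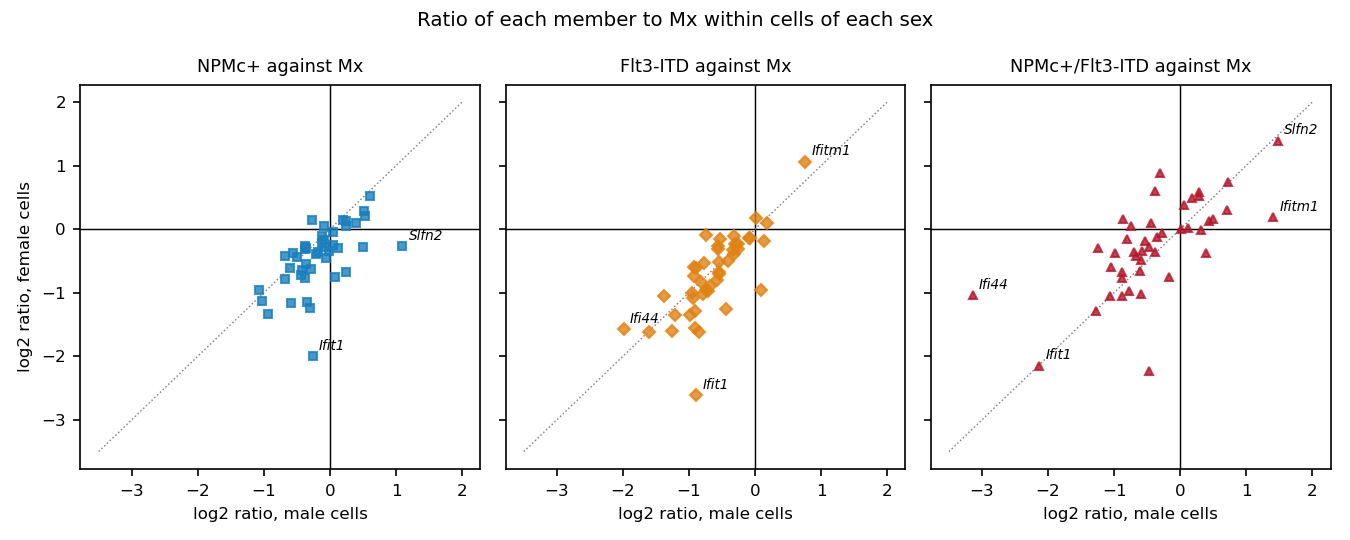
Log2 ratio of each member to Mx among male cells (horizontal) and female cells (vertical), 1 point per member and 1 panel per mutant library, with a dotted line where both are equal. In the Flt3-ITD panel Ifit1 lies far from the line, at -0.89 in male and -2.62 in female cells. In the NPMc+/Flt3-ITD panel Ifitm1 and Ifi44 do, with 1.41 and -3.14 in male and 0.19 and -1.03 in female cells.

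The receptor genes and their kinases were near the Mx level. Of the receptor and signalling list, Irf2 was lower and Socs3 and Irf8 were higher in Flt3-ITD. Ifnar1 was at 30.7, 20.8, 22.7 and 30.4 CPM, Ifnar2 at 70.9, 72.2, 66.9 and 83.8, Jak1 at 139, 111, 120 and 166, and Tyk2 at 21.4, 17.6, 15.6 and 21.1. None of these 4 passed 1.5-fold in any mutant library. Socs3, an inhibitor of cytokine receptor signalling, was at 24.2, 85.6, 145 and 51.5 CPM. Socs1, the inhibitor of interferon receptor signalling, was level in the single mutants and higher in NPMc+/Flt3-ITD, with 13.2, 12.4, 12.2 and 23.9 CPM. The names Ifnb1, Ifna2 and Ifna4 matched no row, and Ifng stayed at or below 1.41 CPM.

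Some other genes induced by interferon were also lower in Flt3-ITD. Among 28 measured interferon-stimulated genes outside the list, 12 were lower (Ddx60, Slfn5 and Uba7 among them) and 2 were higher (Plac8 and Ifi30), against 10.2% and 5.18% of all genes, with a median of -0.49 (all genes -0.10). Uba7, the activating enzyme for Isg15, was at 141, 125, 92.0 and 59.4 CPM, and its conjugating enzyme Ube2l6 at 138, 136, 96.0 and 69.6, so both were lowest in NPMc+/Flt3-ITD. The interferon-inducible GTPases depend mainly on interferon gamma and attack vacuoles of intracellular microbes. In Flt3-ITD 12 of 12 measured ones were lower, against 10.2% of all genes, with a median of -1.36. In NPMc+ 7 of the 12 were lower, against 12.8% of all genes, with a median of -0.88. In NPMc+/Flt3-ITD 6 were lower, against 12.2% of all genes, with a median of -0.55, and 4 stood above Mx at any fold. Tgtp2 was at 39.4, 9.85, 4.64 and 3.52 CPM and Iigp1 at 79.8, 33.3, 20.1 and 25.5. Igtp, 1 of the 4 above Mx, was at 63.4, 50.1, 30.1 and 82.8. Tgtp1 and Tgtp2 are near-identical copies, so the split between them is uncertain. By contrast, of 18 genes for MHC class I and peptide loading 1 (H2-T22) was lower in Flt3-ITD (10.2% of all genes), with a median of -0.23, and 4 (Calr, Psmb8, Psme2 and Tap2) were higher in NPMc+/Flt3-ITD, where 12.8% of all genes were. Mx1, whose promoter drives the Cre, was below 1 CPM in every library, at 0.81, 0.72, 0.14 and 0.26.

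The ISRE core did not separate the members in Flt3-ITD. The 15 measured members with a match had a median log2 ratio to Mx of -0.65, and 8 were lower and 0 higher. The 20 measured members without a match had a median of -0.62, and 11 were lower and 1 higher. Of all genes, 10.2% were lower and 5.18% higher. In NPMc+/Flt3-ITD the medians were -0.58 with and -0.17 without a match. There 7 of the 15 with a match were lower and 0 higher, and 7 of the 20 without were lower and 2 higher. Of all genes, 12.2% were lower and 12.8% higher in that library. Isg15 and Ifit1, shown above with several matches, were lower in both libraries. Bst2 and Oas1a, with 2 matches each, were not lower in NPMc+/Flt3-ITD.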

How the data were processed

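Single-cell RNA was measured in 4 libraries of sorted LT-HSCs with 10x Single Cell 3' v2 chemistry, per the labels' protocols. The authors deposited raw UMI counts per gene and barcode, and the submitters' processing notes name mm10, STAR 2.7.0c and its STARsolo mode. The annotation, the cell calling and whether counting used strand are not given in the sources used here. No column belonged to another sample (0 were left out).

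Barcodes needed 1000 UMIs or more, 500 genes or more and a mitochondrial share of 10% or less. UMIs were summed per library and divided by the library total (CPM). Genes in all 4 tables with a mean of at least 5 CPM were compared. Ratios carry exact 95% intervals (Clopper-Pearson, scipy 1.17.1), and a gene was counted from 1.5-fold. Because each genotype had 1 library, no p-values were computed. Intervals cover counting error only. Per-cell totals were taken after thinning to 3000 UMIs, and cells with markers of another lineage had at least 3 UMIs of that lineage's list at that depth. No doublet caller was run: cells with UMIs of both sexes and the 5% of cells with the most UMIs were left out as an alternative. Sex was called per cell from UMIs of 4 Y-linked genes (Uty, Kdm5d, Eif2s3y and Ddx3y) against Xist, and cells with both or neither were left out of that split. Scaling by TMM used edgeR 4.0.16. Coordinates come from GENCODE on mm10, and promoters from RefSeq on GRCm38.p6. The ratio code was tested on simulated counts.

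The members, lists and settings were chosen with earlier results of these data known. Every member above the floor could be named, together with the genes of the pathway lists. Values of lists stand beside those of all genes and are not tests. One gene of the signalling list is not reported here.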

Additional observations from a re-analysis of the deposited data

Results flagged for a closer look

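In 4 ratios the male and female cells lay past 1.5-fold in opposite directions, and the difference was not tested. For NPMc+/Flt3-ITD against NPMc+, Ifih1 had a log2 ratio of 0.87 in female cells (60 and 105 UMIs) and -0.66 in male cells. In the same comparison Zbp1 had 0.80 in female (39 and 72 UMIs) and -0.81 in male cells, and Oasl2 had 0.61 (86 and 180 UMIs) and -0.79. For NPMc+/Flt3-ITD against Flt3-ITD, Ifitm1 had -0.87 in female cells (2047 and 17176 UMIs) and 0.65 in male cells. The female cells of NPMc+/Flt3-ITD numbered 179, and all 4 ratios rest on them.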

How the results depend on the processing

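Results are given in the order NPMc+, Flt3-ITD and NPMc+/Flt3-ITD against Mx, then NPMc+/Flt3-ITD against NPMc+ and against Flt3-ITD. As reported, the summed log2 ratios were -0.11, 0.04, 0.41, 0.52 and 0.37, with 8, 23, 18, 7 and 3 members lower and 1, 1, 4, 3 and 13 higher. With TMM scaling, the summed ratios were 0.032, 0.18, 0.39, 0.35 and 0.20. Lower members numbered 4, 19, 20, 12 and 4, against 8.17%, 6.03%, 12.6%, 11.4% and 11.5% of all genes. Higher members numbered 4, 1, 4, 1 and 6, against 7.74%, 6.81%, 11.7%, 8.87% and 7.91%. With totals that leave out mitochondrial and ribosomal protein genes, the summed ratios were -0.15, -0.0071, 0.21, 0.36 and 0.22. Lower members numbered 8, 25, 23, 12 and 4, against 14.8%, 12%, 17.4%, 11.2% and 11.1% of all genes. Higher members numbered 1, 1, 2, 1 and 6, against 4.49%, 4.79%, 7.21%, 9.05% and 8.2%. In male cells, the summed ratios were -0.052, 0.0070, 0.43, 0.48 and 0.43. Lower members numbered 6, 22, 19, 12 and 2, against 14.3%, 13.1%, 13.4%, 9.3% and 8.77% of all genes. Higher members numbered 2, 1, 4, 1 and 12, against 5.38%, 5.84%, 13.7%, 15.3% and 15.5%. In female cells, the summed ratios were -0.24, 0.14, 0.023, 0.26 and -0.12. Lower members numbered 15, 25, 13, 2 and 2, against 12.4%, 9.15%, 12.8%, 7.86% and 10.2% of all genes. Higher members numbered 0, 1, 4, 8 and 19, against 6.02%, 5.52%, 17.6%, 15.1% and 19.4%. Without possible doublets, the summed ratios were -0.092, 0.043, 0.36, 0.45 and 0.32, and 2, 1, 4, 2 and 11 members were higher. Without the top 1% of cells of each gene, 2, 1, 4, 3 and 13 members were higher. Without cells bearing markers of other lineages, the summed ratios were -0.017, 0.052, 0.55, 0.57 and 0.50, 5, 23, 17, 6 and 2 members were lower, and 1, 1, 3, 1 and 12 members were higher. In cells with Procr and Hlf, the summed ratios were 0.10, 0.12, 0.47, 0.37 and 0.35, 6, 20, 17, 12 and 3 members were lower, and 1, 1, 3, 1 and 7 members were higher. Without cycling cells, the summed ratios were -0.036, 0.091, 0.24, 0.28 and 0.15, and 3, 1, 4, 1 and 12 members were higher. In cells with 10 to 30 dissociation UMIs, the summed ratios were -0.28, -0.11, 0.49, 0.77 and 0.60, 15, 25, 23, 8 and 4 members were lower, and 0, 0, 4, 3 and 16 members were higher. Without the 1% of cells richest in members, the summed ratios were -0.10, 0.058, 0.43, 0.54 and 0.38. Without the 5 most abundant members, the summed ratios were -0.12, -0.51, -0.11, 0.0029 and 0.40. Without Ifitm1, the summed ratios were -0.019, -0.31, -0.079, -0.060 and 0.23. With a floor of 20 CPM, which leaves 28 members, 4, 10, 8, 0 and 0 members were lower. With a floor of 1 CPM, which takes in all 46 members, 2, 1, 4, 3 and 13 members were higher. The settings on dissociation UMIs, on the cells richest in members and on leaving out Ifitm1 were chosen after seeing the data. Shares over all genes were taken only for the scalings and for male and female cells, so the other counts have no background. The stricter cell filter left the counts as reported, except that 12 members instead of 13 were higher in NPMc+/Flt3-ITD than in Flt3-ITD. Single ratios were followed through the settings for 25 of the members. Of these, 7 called ratios changed sign, all in female cells. Slfn2 in NPMc+ against Mx turned to -0.26 and Zbp1 in NPMc+/Flt3-ITD against Mx to 0.050. In NPMc+/Flt3-ITD against NPMc+, Zbp1, Usp18 and Ifit2 turned to 0.80, 0.52 and 0.095. In NPMc+/Flt3-ITD against Flt3-ITD, Ifit1 and Ifi44 turned to 0.47 and 0.54. Oasl2, outside those 25, also turned in NPMc+/Flt3-ITD against Mx among female cells. Its levels in NPMc+/Flt3-ITD and Mx were 56.3 and 50.5 CPM there, and 27.4 and 46.1 CPM over all cells. The cause was not tested for any of these except where a setting leaves fewer genes. TMM scaling moved the median of all genes from -0.06 to 0.08 in NPMc+, from -0.10 to 0.04 in Flt3-ITD and from 0.14 to 0.11 in NPMc+/Flt3-ITD, and the members' medians to -0.05, -0.48 and -0.43. After thinning to 2000 or 5000 UMIs the less abundant members' total was again highest in Mx and lowest in Flt3-ITD, while NPMc+ and NPMc+/Flt3-ITD exchanged places at 2000 and 5000 UMIs. Few UMIs limit low members, such as Ifi44 with 86 in NPMc+/Flt3-ITD. No paired analysis was possible because each genotype had 1 library.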
